A study of Arabidopsis thaliana with 2 samples.

Results

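Cytosolic ribosomal protein genes were examined in RNA sequencing of whole Arabidopsis thaliana seedlings. Members were the nuclear loci whose best protein match in the deposited annotation names a 40S or a 60S ribosomal protein. The rule found 194 of 21682 nuclear loci in the table, 85 of the small (40S) and 109 of the large (60S) subunit. They were represented by 237 transcript models, and 39 members had more than 1 model, whose counts and RPKM (reads normalised for transcript length and library size) were summed per locus. A mean RPKM of 1 or more was reached by 190 members, 83 of the small and 107 of the large subunit, and these are called expressed here. The 4 others were S15-3 (3 against 4 counts, overexpression against wild type), S15-6 (0 against 1), L36-2 (3 against 2) and the pseudogene AT5G40130 with an L5 name (0 against 1).

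The overexpression seedlings carried ARF18, an auxin response factor, under the 35S promoter, a viral promoter active in most plant cells, in the Columbia (Col) background, and were of the single line numbered OE-2. The reference seedlings were untransformed Col wild type. For both genotypes the labels give an age of 7 days in one field and describe 4 days of darkness before 7 days of white light in another. Each genotype had 1 library, of 6824188 counts for overexpression and 7059226 for wild type, so the values describe these 2 libraries, no test between genotypes exists, and every interval covers counting error only. The targeted gene ARF18 (AT3G61830) had 472 counts (29.5 RPKM) in overexpression against 97 (5.85 RPKM) in wild type, a count ratio of 5.03. Root, green shoot and dividing-cell markers were all represented. The 5 root markers summed to 8609 RPKM in overexpression against 10332 in wild type. Most of that sum was 1 gene, with a mean of 9385 RPKM. Singly, 2 root markers were higher and 3 lower in overexpression. The 4 green shoot markers were detected except LHCA1 (0 counts against 1), and the 5 dividing-cell markers summed to 198 RPKM against 161.

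Each cytosolic ribosome is built from a small subunit, which decodes the messenger RNA, and a large subunit, which joins amino acids, and each subunit combines ribosomal RNA with many different proteins. In Arabidopsis nearly every ribosomal protein is encoded by a small family of paralogous genes, whose transcripts are among the most abundant in growing tissue. Their promoters are known for site II elements and for the telo-box, a short motif that resembles the plant telomere repeat. Mutants in single ribosomal protein genes are known for pointed leaves, for defects in leaf polarity and for auxin-related phenotypes.

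Transcripts of ribosomal proteins were more abundant in the overexpression library than in wild type, by a similar amount in both subunits. They took 9.04% of all counts in overexpression (95% exact binomial interval 9.02 to 9.06%), against 6.60% in wild type (6.58 to 6.62%). The small subunit accounted for 3.83% of counts in overexpression and 2.81% in wild type, and the large subunit for 5.21% and 3.79%. Summed over the expressed members, small subunit counts were 1.36-fold (1.35 to 1.37) and large subunit counts 1.37-fold (1.37 to 1.38) those of wild type after scaling to the library totals. In a mixture of whole seedlings, more cells of a type and more of these transcripts per cell cannot be told apart.

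**Figure D1:**
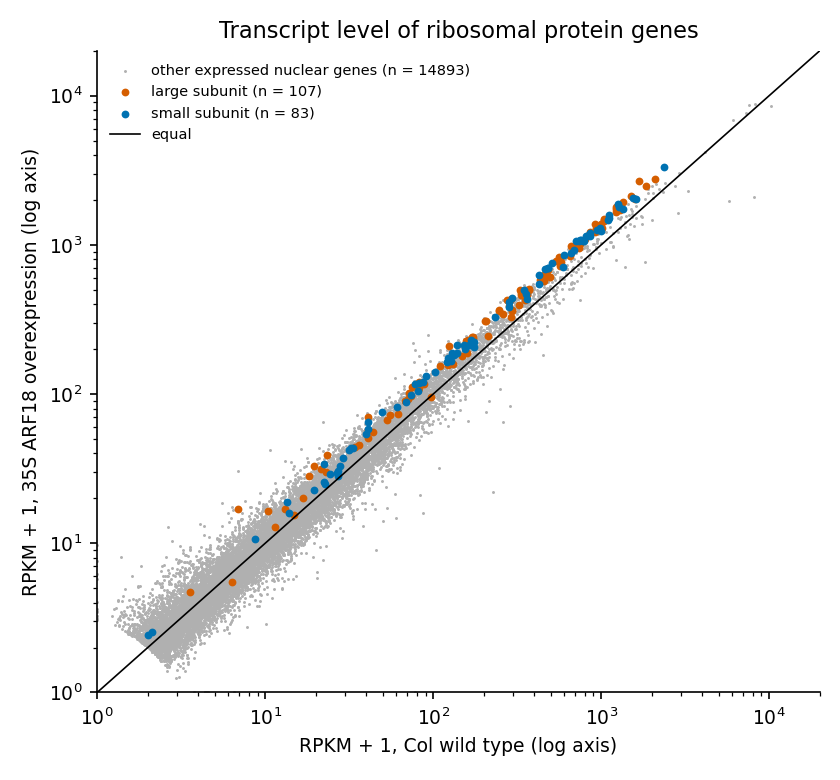
Level of each expressed nuclear gene (RPKM + 1, log axes) in the overexpression library (vertical) against wild type (horizontal), with the 83 small and 107 large subunit genes coloured and the line of equal levels drawn. Nearly all members lie just above the line, over the whole range of levels.

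The difference was modest for most members and shared by nearly all of them. It was less uniform among 24 expressed genes that the rule leaves out, listed by eukaryotic ribosomal protein orthology terms. Of those, 19 were higher in overexpression and 5 lower. Their counting interval lay above 1 for 12 and below 1 for 1, against 18.7% and 15.6% of all expressed genes, and included 1 for 11. Summed, their counts were 1.38-fold (1.36 to 1.41) those of wild type. The log2 ratio of (RPKM + 1), overexpression over wild type, was above 0 for 188 of 190 expressed members, 83 of 83 in the small and 105 of 107 in the large subunit, against 53.8% of 15083 expressed nuclear genes. Its median was 0.44 in the small subunit (range 0.07 to 0.66, SD over genes 0.12) and 0.45 in the large subunit (-0.20 to 1.29, SD 0.17), beside 0.03 over all expressed genes (SD 0.40). The counting interval of the count ratio lay wholly above 1 for 71 small and 101 large subunit genes, against 18.7% of all expressed genes. It lay wholly below 1 for 0 members, against 15.6% of all expressed genes. Large differences were rare: 1 member was at least 2-fold higher (1.25% of all expressed genes) and 18 were at least 1.5-fold higher, 6 of the small and 12 of the large subunit (6.24%). No member was 2-fold or 1.5-fold lower, against 0.663% and 4.71% of all expressed genes. In the authors' deposited table, 165 of the 237 member models were higher at a false discovery rate (FDR) of 0.05 or less, against 8.11% of 24152 nuclear models, 0 were lower and 1 was at least 2-fold higher (0.749%); that FDR compares the reads of 2 libraries, not the genotypes.

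Transcript length moved with the ratio across the whole genome, and ribosomal protein transcripts are short. Members had a median length of 754 bases, against 1415 over all expressed genes. Across genes, Spearman's rho between length and log2 ratio was -0.52 over 15083 genes and -0.24 over the 190 members, points that share the same 2 libraries. Among transcripts of 600 to 700 bases the median log2 ratio was 0.47 for 47 members and 0.32 for 625 other genes. Among those of 800 to 900 bases it was 0.48 for 31 members and 0.24 for 858 others, and between 1000 and 1200 bases 0.36 for 23 members and 0.17 for 1553 others. In the length range that holds the middle of the members, 661 to 919 bases, members at a mean of at least 100 RPKM had a median of 0.50 (67 genes) and other genes of that level 0.28 (282 genes).

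Subtracting the median log2 ratio of genes of like length and then of like GC content left medians of 0.15 in the small and 0.20 in the large subunit. The adjusted ratio was above 0 for 71 of 83 small and 96 of 107 large subunit genes, against 49.9% of all expressed genes. With the counting interval shifted by the same amount, it lay wholly above 1 for 48 small and 73 large subunit genes (11.0% of all expressed genes). It lay wholly below 1 for 1 member, against 12.4% of all expressed genes. On the adjusted scale 2 members were at least 1.5-fold higher (3.06% of all expressed genes) and 0 at least 2-fold higher (0.517%). The difference stood at a smaller size in these adjusted values, and the part of length in the result beyond this adjustment was not tested.

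**Figure D2:**
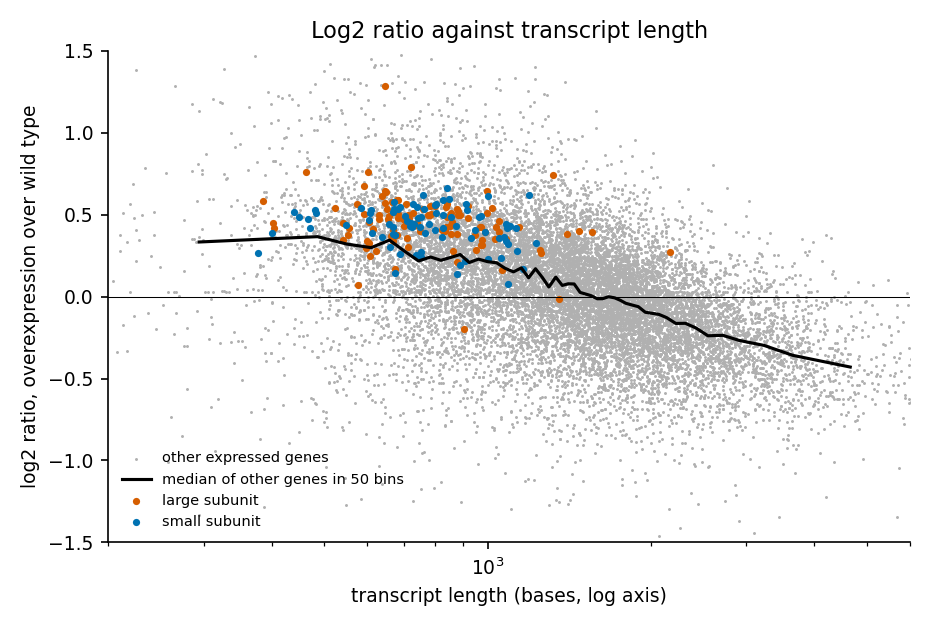
Log2 ratio of (RPKM + 1), overexpression over wild type, against transcript length in bases (log axis) for small subunit genes, large subunit genes and other expressed genes, with the median of other genes in 50 length bins as a line; points beyond 1.5 on the vertical axis are not shown. The line falls with length, and most members sit above it, as in the 600 to 700 base range (0.47 for members, 0.32 for others).

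**Figure D3:**
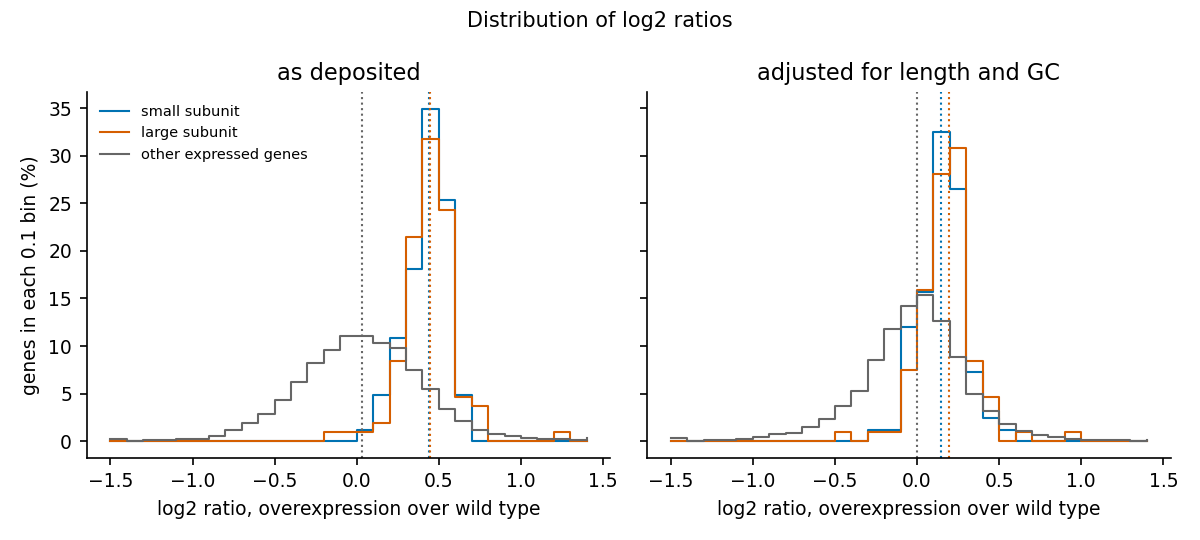
Share of genes in each bin of 0.1 log2 units for the small subunit, the large subunit and other expressed genes, as deposited (left) and after adjustment for length and GC content (right), with dotted lines at the medians; values past the axis limits are counted in the outermost bins. The medians of the members lie at 0.44 and 0.45 on the left and at 0.15 and 0.20 on the right.

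In the small subunit, the 3 genes with the highest levels were S8-1, S2-3 and S23-2. S8-1 (AT5G20290; minus strand of chromosome 5, 6851341 to 6853106 in TAIR10.1, 5 exons) had 21819 counts (3310 RPKM) in overexpression against 16116 (2363 RPKM) in wild type, a count ratio of 1.40 (1.37 to 1.43). S2-3 (AT2G41840), a protein of the messenger RNA entry region, had 16863 counts (2014 RPKM) against 13882 (1603 RPKM), a ratio of 1.26 (1.23 to 1.29). S23-2 (AT5G02960), which lies at the decoding centre, had 10543 counts (2063 RPKM) against 8134 (1538 RPKM), a ratio of 1.34 (1.3 to 1.38). All 3 stood higher in overexpression, by amounts whose counting intervals exclude 1.

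The highest small subunit ratios were those of S11-2, S12-2, Sa-1, an S10 gene and S10-1. S11-2 (AT4G30800) had 366 counts (63.8 RPKM) in overexpression against 237 (39.9 RPKM) in wild type, a ratio of 1.60 (1.35 to 1.89). S12-2 (AT2G32060) had 172 counts against 114, a ratio of 1.56 (1.22 to 2.00). Sa-1 (AT1G72370, RPSaA), a relative of the animal laminin receptor precursor, had 1721 counts (212 RPKM) against 1157 (138 RPKM), a ratio of 1.54 (1.43 to 1.66), and kept the highest adjusted log2 ratio of the small subunit at 0.53. For S10-1 (AT4G25740) the counts were 674 against 459 and the ratio 1.52 (1.35 to 1.71). The S10 gene AT3G22300 had 513 counts against 345, but the deposited annotation also gives it an organellar ribosome term, as it does for an S19 gene (AT5G47320) and an L2 gene (AT2G07715), so 190 of 194 members remain when these 3 and the pseudogene are set aside.

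The lowest small subunit ratios were close to 1 and belonged to weakly expressed paralogs. S4-2 (AT5G07090) had 204 counts (27.4 RPKM) in overexpression against 200 (25.97 RPKM) in wild type, a ratio of 1.06 (0.864 to 1.29). S9-2 (AT5G39850) had 144 against 135 counts, S15a-2 (AT2G19720) 132 against 123, S15-4 (AT5G09510) 235 against 215 and S7-1 (AT1G48830) 150 against 135, with count ratios between 1.10 and 1.15. The counting intervals of all 5 include 1, so at this depth no difference was detectable for them.

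Small subunit genes known from mutants or signalling had count ratios above 1 of different size, and RPS6A, RPS24B and RPS5B lost their call when adjusted. RPS18A (AT1G22780), the POINTED FIRST LEAF gene, had 3629 counts (696 RPKM) in overexpression against 2587 (480 RPKM) in wild type, a ratio of 1.45 (1.38 to 1.53). RPS13A (AT4G00100), also needed for normal leaf shape, had 7577 counts (1515 RPKM) against 5776 (1116 RPKM), a ratio of 1.36 (1.31 to 1.40). RPS5A (AT3G11940), which is required for embryo growth, had 1409 counts against 1033, a ratio of 1.41 (1.3 to 1.53), and its less abundant paralog RPS5B (AT2G37270) 232 against 186, a ratio of 1.29 (1.06 to 1.57). Of the genes of S6, the substrate of S6 kinase in target of rapamycin (TOR) signalling, RPS6A (AT4G31700) had 1394 counts against 1230, a ratio of 1.17 (1.09 to 1.27), but an adjusted log2 ratio of -0.07 with an interval of the ratio that includes 1 (0.883 to 1.03). RPS6B (AT5G10360) had 2881 counts against 2205, a ratio of 1.35 (1.28 to 1.43). RPS21B (AT3G53890) had 471 counts against 334 and RPS28B (AT5G03850) 3629 against 2704, ratios of 1.46 (1.27 to 1.68) and 1.39 (1.32 to 1.46). RPS24B (AT5G28060), whose protein match reads S19-like but whose orthology group is S24, had 3673 against 3139, a ratio of 1.21 (1.15 to 1.27), and an adjusted log2 ratio of -0.01 (interval of the ratio 0.949 to 1.04). The adjusted interval of RPS5B includes 1 as well (0.904 to 1.34).

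In the large subunit, the 3 genes with the highest levels were L18a-2, L37a-2 and L8-1. L18a-2 (AT2G34480; minus strand of chromosome 2, 14532624 to 14534409, 4 exons) had 15470 counts (2754 RPKM) in overexpression against 12061 (2076 RPKM) in wild type, a ratio of 1.33 (1.3 to 1.36). L8-1 (AT2G18020), a protein near the peptidyl transferase centre, had 16312 counts (2464 RPKM) against 12574 (1836 RPKM), a ratio of 1.34 (1.31 to 1.37). L37a-2 (AT3G60245) stood out among abundant members, with 10880 counts (2693 RPKM) against 7059 (1689 RPKM), a ratio of 1.59 (1.55 to 1.64).

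The member with the highest ratio was L35-3 (AT3G55170; minus strand of chromosome 3, 20452910 to 20454530, 5 exons), a gene of low level for a protein at the exit of the peptide tunnel. It had 70 counts (15.9 RPKM) in overexpression against 27 (5.91 RPKM) in wild type, a ratio of 2.68 (1.70 to 4.35), and an adjusted log2 ratio of 0.93. The next were L28-1 (AT2G19730) with 341 counts (69.3 RPKM) against 202 (39.6 RPKM), L29-1 (AT3G06700) with 660 (209 RPKM) against 402 (123 RPKM), L32-2 (AT5G46430) with 132 (32.1 RPKM) against 79 (18.6 RPKM) and L7-3 (AT2G44120) with 341 (37.9 RPKM) against 207 (22.2 RPKM). Their count ratios lay between 1.70 and 1.75, each with an interval above 1. L28-1, L29-1, L32-2 and L7-3 each have more than 1 transcript model, and the level of such loci may be understated, which was not tested.

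Only 2 expressed members had a log2 ratio below 0. L13-1 (AT3G49010) had 28 counts (4.53 RPKM) in overexpression against 34 (5.34 RPKM) in wild type, a ratio of 0.852 (0.498 to 1.45). L3-2 (AT1G61580, RPL3B; minus strand of chromosome 1, 22720560 to 22723152, 6 exons), a protein that reaches towards the peptidyl transferase centre, had 876 counts (94.8 RPKM) against 916 (95.8 RPKM), a ratio of 0.989 (0.901 to 1.09). The other low ratios were those of L36-1 (AT2G37600; 57 against 56 counts), L7-4 (AT3G13580; 86 against 79) and L31-2 (AT4G26230; 1501 against 1380). Among these 5 genes, L13-1, L36-1 and L7-4 have more than 1 transcript model. L31-2 was the one with an interval above 1, at a ratio of 1.13 (1.05 to 1.21). Adjusted for length and GC content its log2 ratio was -0.20 and the interval of its ratio 0.810 to 0.939, which makes it the member counted below 1 on the adjusted scale.

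Among members of the large subunit known from mutants, RPL3B alone had a count ratio below 1. The PIGGYBACK genes, known for leaf polarity, were RPL10aB (AT2G27530; 716 counts in overexpression against 563 in wild type, ratio 1.32, 1.18 to 1.47), RPL9C (AT1G33140; 2768 against 2355, ratio 1.22, 1.15 to 1.29) and RPL5A (AT3G25520; 3043 against 2584, ratio 1.22, 1.16 to 1.28). RPL5B (AT5G39740), the other gene of the protein that carries 5S ribosomal RNA into the large subunit, had 624 counts against 536, a ratio of 1.2 (1.07 to 1.35). RPL24B (AT3G53020, SHORT VALVE1), known for reinitiation of translation on auxin response factor messenger RNAs with upstream reading frames, had 3567 counts (624 RPKM) against 2749 (465 RPKM), a ratio of 1.34 (1.28 to 1.41). RPL4A (AT3G09630; 1015 against 796) and RPL4D (AT5G02870; 1163 against 911), whose mutants have auxin-related defects, had ratios of 1.32 (1.2 to 1.45) and 1.32 (1.21 to 1.44). RPL10A (AT1G14320; 2416 against 2012), RPL23aA (AT2G39460; 251 against 198) and RPL27aC (AT1G70600; 5104 against 3905) had ratios of 1.24 (1.17 to 1.32), 1.31 (1.08 to 1.59) and 1.35 (1.3 to 1.41). With the length and GC adjustment the intervals of RPL10aB, RPL9C, RPL5B and RPL10A include 1. RPL3A (AT1G43170), whose protein match reads hypothetical protein and which the rule therefore leaves out, had 12 counts against 17, a ratio of 0.730 (0.318 to 1.62).

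Close paralogs can share reads, so single loci are less certain than their family sums. The 190 annotated members formed 75 protein families, 32 of the small and 43 of the large subunit, with 1 to 5 loci each. Family sums gave a median log2 ratio of 0.48 in the small subunit (0.27 to 0.62) and 0.46 in the large subunit (-0.02 to 0.71), and the counting interval lay above 1 for 74 of 75 families. The exception was L3, for which L3-2 is the gene here. The families that stood at the ends of the range, chosen after their values were seen, were L28 (418 counts in overexpression against 263 in wild type, ratio 1.64, 1.41 to 1.93), L29 (822 against 529, 1.61, 1.44 to 1.80), L37a (10880 against 7059, 1.59, 1.55 to 1.64) and Sa (1732 against 1165, 1.54, 1.43 to 1.66) at the top. Beside L3, L31 (3008 against 2671, 1.16, 1.11 to 1.23), S24 (5848 against 5022, 1.2, 1.16 to 1.25) and L5 (3667 against 3120, 1.22, 1.16 to 1.28) stood at the bottom. With the length and GC adjustment 72 of 75 families had a log2 ratio above 0, and L31 (-0.12) and S24 (-0.01) joined L3 below it.

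**Figure D4:**
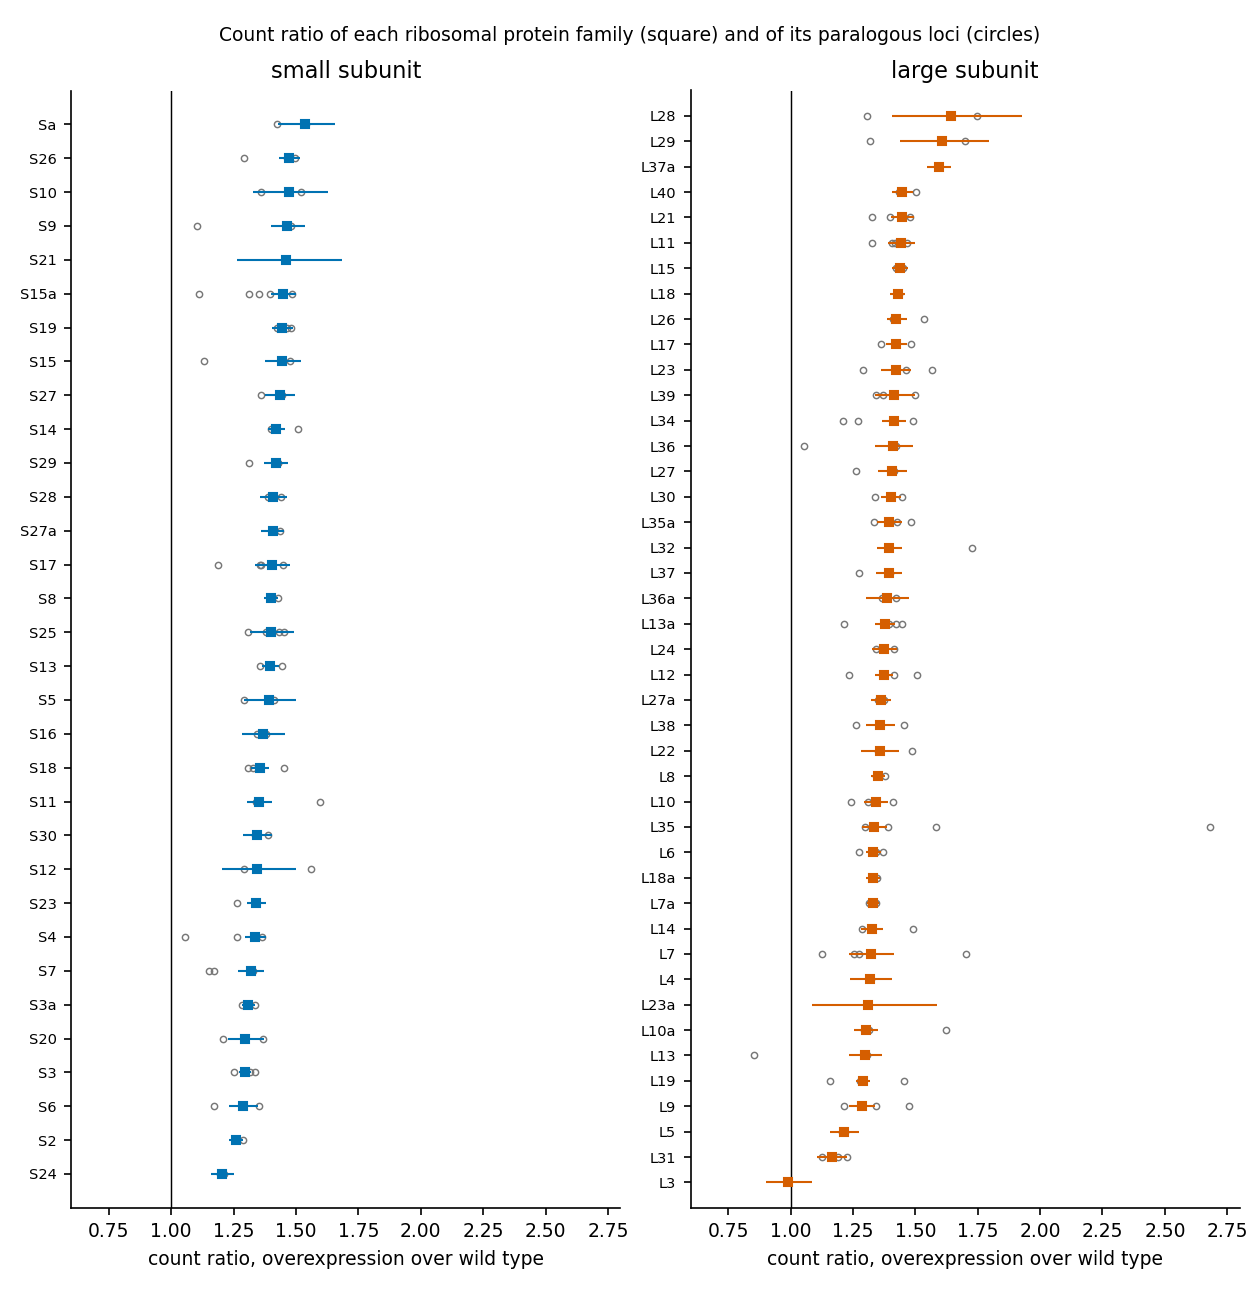
Count ratio, overexpression over wild type, scaled to library totals, for each of the 32 small and 43 large subunit families (squares, with 95% exact counting intervals) and for their expressed loci (open circles), ordered by ratio. All families but L3 lie to the right of 1, and L35-3, at 2.68, is the single locus farthest from its family.

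Within families the same paralog led in both libraries. In 71 of 71 families with 2 or more loci, the locus with the most counts in overexpression was also the one with the most counts in wild type. Of 183 loci set against the rest of their family, the exact conditional interval of the odds ratio included 1 for 137, lay above 1 for 23 and below 1 for 23; in families of 2 loci these are 1 comparison seen from either side. L35-3 held 1.05% of L35 counts in overexpression (0.823 to 1.33%) against 0.525% in wild type (0.347 to 0.764%). L13-3 (AT5G23900; 3379 counts against 2679) held 99.2% of L13 counts in overexpression (98.8 to 99.5%) against 98.7% in wild type (98.3 to 99.1%), and its odds ratio against L13-1, 1.53, had an interval that includes 1 (0.899 to 2.63). Among members the ratio was lower at low levels: those averaging 10 to 30 RPKM had a median log2 ratio of 0.26 (21 genes) and those of 30 to 100 had 0.41 (32 genes). Above that it changed little, with 0.47 at 100 to 300 (33 genes), 0.46 at 300 to 1000 (65 genes) and 0.48 at 1000 or more (34 genes). Other genes at 1000 RPKM or more had 0.08 (70 genes). Adjusted for length and GC content, the member medians in the same order were 0.0035, 0.13, 0.17, 0.20 and 0.20, and that of the other genes was -0.08. Members of 1 to 10 RPKM (5 genes) had a median of 0.28, and -0.03 adjusted. Spearman's rho between mean RPKM and log2 ratio was 0.24 over the 190 members, which share both libraries. It was 0.30 in the small subunit (0.39 adjusted) and 0.18 in the large subunit (0.09 adjusted).

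Promoter motifs were counted from 250 bases before to 50 bases after the annotated gene start, on both strands, for TGGGCC, for TGGGCT as another spelling of site II, and for the 7-letter telo-box core, spelled AACCCTA; a site II match can share an end letter with a telo-box match, and site II matches on opposite strands can overlap each other. Site II was found in 142 of the 190 members without an organellar or pseudogene annotation (74.7%), against 21.7% of 27443 nuclear protein-coding genes, and the telo-box core in 102 (53.7%), against 8.83%. Both were found in 43.2% of these members and 2.88% of all genes, and neither in 28 members. Site II was present in 66.3% of small and 81.3% of large subunit windows, and the telo-box core in 50.6% and 56.1%. The median start of the telo-box match was 2 bases after the first base of the gene and that of site II 45 bases before it (position -45). Windows with different motifs had similar unadjusted ratios. Over the expressed ones of these genes the median log2 ratio was 0.44 with both motifs (81 genes) and 0.43 with site II alone (59). It was 0.49 with the telo-box core alone (20) and 0.42 with neither (27). Adjusted for length and GC content, the medians in the same order were 0.17, 0.18, 0.25 and 0.12. Levels differed as well, with medians of mean RPKM of 405, 399, 98 and 85 in that order. Whether motifs and ratio are related was not tested.

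L13-1, which had the lowest ratio of all but few counts, held 3 site II and 2 telo-box core matches and is not printed. Windows are printed for the member with the highest ratio and for the lowest among members with 100 or more counts. The most abundant gene of each subunit is printed as well. These windows show how the motifs are laid out. They are RefSeq sequence of the TAIR10.1 build, minus strand, 5′ to 3′, and stop at the annotated gene start and where a neighbouring gene begins. Capitals mark site II in either spelling, the telo-box core, and their reverse complements.
L35-3, highest ratio, chr3:20454531-20454745: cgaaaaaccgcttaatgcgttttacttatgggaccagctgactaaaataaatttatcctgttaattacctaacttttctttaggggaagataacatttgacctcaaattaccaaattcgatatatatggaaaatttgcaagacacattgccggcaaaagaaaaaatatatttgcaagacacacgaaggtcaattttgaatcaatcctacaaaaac
L3-2, ratio near 1, chr1:22723153-22723367: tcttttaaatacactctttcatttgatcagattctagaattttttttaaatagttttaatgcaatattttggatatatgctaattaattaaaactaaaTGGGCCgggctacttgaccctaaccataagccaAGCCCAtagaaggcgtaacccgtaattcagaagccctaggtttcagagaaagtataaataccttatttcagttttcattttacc
S8-1, most abundant of the small subunit, chr5:6853107-6853298: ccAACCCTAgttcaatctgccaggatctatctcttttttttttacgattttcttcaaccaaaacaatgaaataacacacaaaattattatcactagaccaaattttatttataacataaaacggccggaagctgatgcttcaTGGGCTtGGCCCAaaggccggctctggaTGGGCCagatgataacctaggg
L18a-2, most abundant of the large subunit, chr2:14534410-14534659: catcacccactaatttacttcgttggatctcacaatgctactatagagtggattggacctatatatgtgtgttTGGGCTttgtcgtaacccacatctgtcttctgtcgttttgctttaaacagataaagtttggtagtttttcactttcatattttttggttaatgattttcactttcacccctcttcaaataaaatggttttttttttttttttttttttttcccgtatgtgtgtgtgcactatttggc
The L35-3 window held none of these letters, L3-2 held 2 site II matches, S8-1 held 3 site II matches near its start and a telo-box core far upstream, with another across the gene start, and L18a-2 held 1 site II match. No match says only that these letters are not in this window. Whether the annotated starts are those of the deposited transcript models is not known: the length of only 11 members equalled that of the reference transcript.

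Other genes of translation did not all show the same size of difference. The P-stalk proteins P0, P1, P2 and P3, acidic proteins of the large subunit that recruit elongation factors and whose protein match is not worded as the rule asks, had a median log2 ratio of 0.45 over 11 expressed genes, 0.17 adjusted. Before adjustment 10 of 11 were above 0, against 53.8% of all expressed genes. P0-2 (AT3G09200) had 3609 counts (397 RPKM) in overexpression against 2719 (289 RPKM) in wild type, a ratio of 1.37 (1.31 to 1.44). P2-1 (AT2G27720) had 1254 against 902, a ratio of 1.44 (1.32 to 1.57), and P1-3 (AT5G47700) 351 against 233, a ratio of 1.56 (1.32 to 1.85). RACK1, a scaffold protein on the small subunit, is encoded by 3 genes, and the most abundant, RACK1A (AT1G18080), had 13259 counts against 13256, a ratio of 1.03 (1.01 to 1.06). RACK1B (AT1G48630) and RACK1C (AT3G18130) had ratios of 1.35 (1.28 to 1.42) and 1.24 (1.17 to 1.33).

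Initiation factors and ribosome assembly genes had medians near 0 before adjustment, and elongation factors had one near 0 after it. The 25 expressed initiation factors, of a median length of 1309 bases, had a median log2 ratio of 0.05. Adjusted, their median was 0.11, beside an adjusted median of 0.15 in the small subunit, and 18 were above 0, against 49.9% of all expressed genes. The counting interval lay above 1 for 11 and below 1 for 3, against 18.7% and 15.6% of all expressed genes. A SUI1 family gene (AT5G54940), named for a protein of start codon selection, had 38 counts in overexpression against 18 in wild type, a ratio of 2.18 (1.22 to 4.06). An eIF2A-like gene (AT1G73180) had 97 against 67 and an eIF5A gene (AT1G13950) 320 against 235, with ratios of 1.5 (1.09 to 2.08) and 1.41 (1.19 to 1.67). The 4 elongation factor genes had a median of 0.21 (-0.03 adjusted), and the most abundant, elongation factor 1-beta 2 (AT5G19510), had 8187 counts (1222 RPKM) against 7426 (1071 RPKM), a ratio of 1.14 (1.11 to 1.18). Of 23 ribosome biogenesis genes, 21 were expressed, at a median of 0.02 (0.07 adjusted). Their interval lay above 1 for 3 and below 1 for 4, against 18.7% and 15.6% of all expressed genes. NUC-L1 (AT1G48920), the nucleolin of ribosomal RNA gene transcription, had 6833 counts (509 RPKM) against 9429 (679 RPKM), a ratio of 0.750 (0.727 to 0.773), and its weakly expressed paralog NUC-L2 (AT3G18610) 25 against 42, a ratio of 0.616 (0.360 to 1.03). BRX1-1 (AT3G15460), a large subunit assembly factor, had 202 counts against 153, a ratio of 1.37 (1.1 to 1.7). FIB2 (AT4G25630), a fibrillarin of ribosomal RNA methylation chosen after its values were seen, had 3108 (352 RPKM) against 2548 (279 RPKM), a ratio of 1.26 (1.2 to 1.33). These genes are longer than the members, with a median of 1856 bases.

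Of the TOR pathway, which raises ribosome production when nutrients are plentiful, 3 of 5 listed genes were expressed and all had log2 ratios below 0, at a median of -0.40 (-0.27 adjusted). RAPTOR1B (AT3G08850) had 661 counts in overexpression against 1045 in wild type, a ratio of 0.654 (0.593 to 0.722), LST8-1 (AT3G18140) 14 against 22, a ratio of 0.658 (0.311 to 1.35), and S6K1 (AT3G08730) 347 against 437, a ratio of 0.821 (0.711 to 0.948). TCP20 (AT3G27010), a transcription factor known to bind site II elements, had 88 counts against 63, a ratio of 1.44 (1.03 to 2.03).

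Of lists outside cytosolic translation, the 36 expressed organelle ribosomal protein genes of the nucleus, with a median length of 882 bases near that of the members, had a median log2 ratio of 0.18 and -0.04 adjusted. The adjusted value was above 0 for 14 of the 36, against 49.9% of all expressed genes. PSRP3/2 (AT5G15760) had 50 counts in overexpression against 30 in wild type, PRPL28 (AT2G33450) 312 against 228 and a 30S S10 gene (AT3G13120) 85 against 59, with ratios between 1.42 and 1.72. The 38 expressed 26S proteasome genes had 0.23 and 0.12 adjusted, beside an adjusted median of 0.15 in the small subunit. Their adjusted value was above 0 for 29, against 49.9% of all expressed genes. Their counting interval lay above 1 for 17 and below 1 for 2, against 18.7% and 15.6% of all expressed genes. The proteasome genes with the largest log2 ratios, PBC2 (26 counts against 15), PAE1 (28 against 17) and RPN8A (55 against 37), had counting intervals that include 1. All 5 dividing-cell markers had a log2 ratio above 0, against 53.8% of all expressed genes, and 4 when adjusted, against 49.9%. Their median was 0.24 (0.13 adjusted). The counting interval included 1 for 3 of them and lay above 1 for 2, against 18.7% of all expressed genes. The 2 were PCNA1 (AT1G07370, 537 counts against 430) and CDKB2;1 (AT1G76540, 608 against 491). The part of these markers in the result was not tested.

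**Figure D5:**
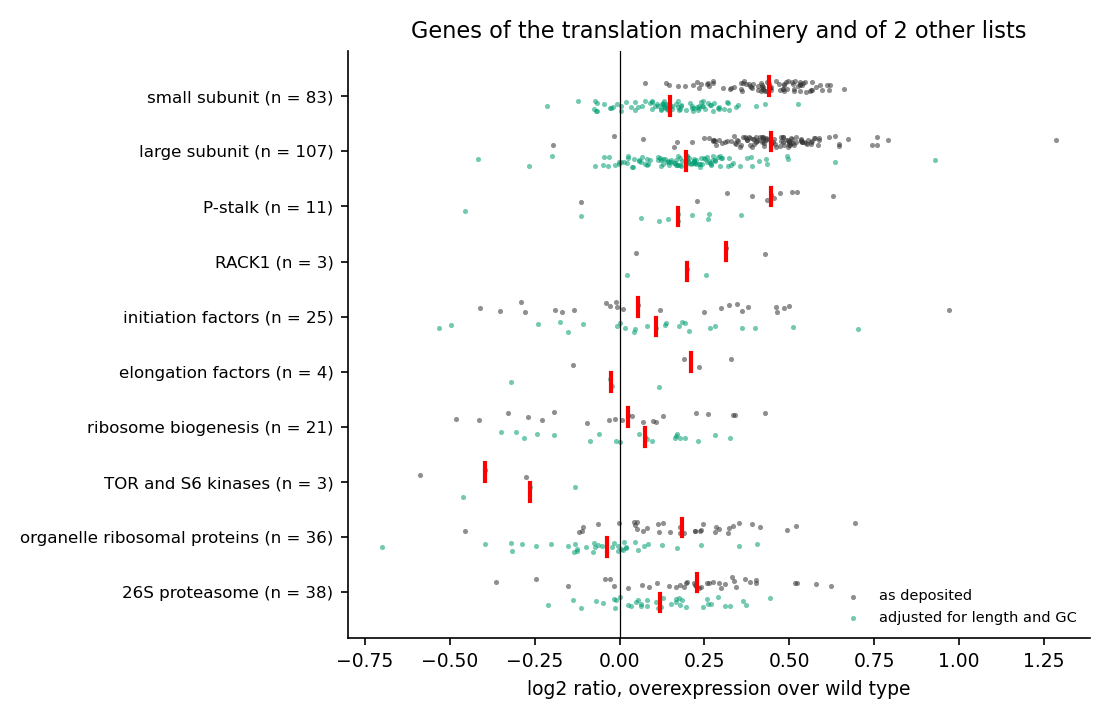
Log2 ratio, overexpression over wild type, of each expressed gene (points) in the ribosomal protein groups and in lists of the translation machinery, organelle ribosomal proteins and the 26S proteasome, as deposited (dark) and adjusted for length and GC content (green), with medians as red bars. The medians of small and large subunit genes and of the P-stalk lie at 0.44, 0.45 and 0.45 as deposited, and that of organelle ribosomal proteins at 0.18.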

How the data were processed

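Whole-seedling RNA was sequenced as 1 library per genotype. Per the labels' protocols, RNA was reverse transcribed with random primers; for aligner, counting program and strandedness, the sources used here give no entry. The submitters' processing notes name TAIR 10 as the build. Each transcript model has a raw read count in the deposited table and an RPKM that the authors computed from transcript length and the sum of counts (recomputed here without a visible difference); a count of 0 carries an RPKM of 0.01 in that table and was set to 0. The deposited table also gives a log2 ratio, a p-value and an FDR whose test is unnamed in these sources and compares reads, not genotypes. Transcript length in bases was taken as deposited.

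Counts and RPKM were summed per locus, and the log2 ratio is that of (RPKM + 1), which understates differences of low genes. Members with several models had a median of 543 summed counts, against 4280 for those with 1, so loci with several models may be understated. Count ratios were scaled to library totals and carry 95% exact conditional binomial (Clopper-Pearson) intervals. The adjusted ratio subtracts the median log2 ratio of genes in the same of 50 length bins and, in a second step, of 50 GC bins (GC known for 14930 of 15083 expressed genes). Gene positions, GC content and promoters came from the TAIR10.1 reference, which held all 194 members. Genes named are, in each subunit, the 5 highest and 5 lowest ratios, the 3 most abundant and, over both subunits, 24 members known from mutants or signalling, of which 22 met the rule (RPL3A did not, and RPL23aB was not analysed here), plus P-stalk genes and up to 3 genes of each other list with the largest absolute log2 ratio; FIB2, L13-3 and the named families were chosen after their values were seen. The members, lists and settings were chosen with earlier results of these data known. A list of 24 expressed genes with other eukaryotic ribosomal protein orthology terms, added later, had a median log2 ratio of 0.33 (0.09 adjusted). The steps were tested on simulated counts. Python 3.11.15, numpy 2.4.6, pandas 2.3.3, scipy 1.17.1 and matplotlib 3.10.9 were used.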

Additional observations from a re-analysis of the deposited data

How the results depend on the processing

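The median log2 ratios of small and large subunit genes, 0.44 and 0.45, were 0.41 and 0.41 when centred on the median of all genes and 0.41 and 0.41 with trimmed mean of M values (TMM) scaling; TMM also gave a ratio of count shares of 1.34 in place of 1.37. Adjusted for length and GC content they were 0.15 and 0.20, and with mean RPKM adjusted as well, an alternative chosen after seeing the data, 0.11 and 0.14. The 1 member at least 2-fold higher became 0 with a pseudocount of 5 RPKM, with either adjustment and with family sums. The 18 members at least 1.5-fold higher became 10 with that pseudocount, 11 when centred, 2 with either adjustment, 10 among loci with 1 transcript model and 4 among families. A log2 ratio above 0 held for 74 of 75 families. Of the 45 named members, 43 had a log2 ratio above 0, and 34 did after the length and GC adjustment. Of the 36 named members with a counting interval above 1, the adjusted interval lay above 1 for 28, included 1 for 7 and lay below 1 for 1 (L31-2). Log2 ratios of genes with such a call turned negative under adjustment for L31-2 (-0.20, and -0.21 with mean RPKM adjusted as well), RPS6A (-0.068 and -0.083) and RPS24B (-0.0066 and -0.068). Medians of elongation factors and organelle ribosomal proteins also changed sign with the length and GC adjustment (-0.03 and -0.04). Beyond the settings' own construction (fewer genes, another scale), the cause of these differences was not tested. No paired analysis was possible because there is 1 library per genotype, which also means that no replicate could be left out. Members with few counts, such as L13-1 and L36-1, have intervals too wide at this depth to show a difference of the size seen in other members.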
